A study of Mus musculus with 3 samples.

Results

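Cadherins, protocadherins and the catenin family proteins that hold them to the cytoskeleton were followed in microvascular fragments of mouse brain, stretches of small vessel freed from the tissue with their endothelium and attached cells. The members were taken by gene symbol, not by level. Every gene named Cdh or Pcdh with only a number after it was taken, which leaves out Pcdh11x. Added were every gene of the protocadherin alpha, beta and gamma clusters and the 9 partners Ctnna1, Ctnna2, Ctnnal1, Ctnnd1, Ctnnd2, Jup, Pkp2, Pkp4 and Dsp. This gave 101 genes of the 56941 in the table, made up of 23 Cdh genes, 11 protocadherins outside the clusters, 58 clustered protocadherins and the 9 partners. Of the 100 members with a gene model in GENCODE M21, 61 lie on chromosome 18 and 8 on chromosome 8.

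The fragments came from the brains of adult wild-type C57BL/6J mice, and all 3 libraries form 1 group (n = 3) with no second condition beside it. No treatment and no sex are given in the labels, and the fragments were obtained by mechanical and enzymatic dissociation, so a library holds whatever cells stayed on the vessels. Polyadenylated RNA was sequenced as paired reads, and the series' text speaks of separate mice. Every value below is therefore a level in these 3 libraries or a difference between them. In such a difference mouse and preparation cannot be told apart.

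Classical cadherins are calcium-dependent adhesion molecules that bind their like on the next cell. Inside the cell their tail binds p120-catenin and beta-catenin or plakoglobin, and alpha-catenin links this complex to actin. In brain vessels VE-cadherin, the product of Cdh5, builds the adherens junctions between endothelial cells, and N-cadherin, the product of Cdh2, is known from contacts between endothelium and pericytes. Protocadherins belong to the same superfamily but lack the classical catenin-binding tail. The clustered ones are best known for giving single neurons a surface identity by the choice among many variable first exons.

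Depth was 128428355, 136672205 and 150449539 counts in replicates 1, 2 and 3, so 3 counts, the limit that a count of 0 allows, correspond to 0.0231, 0.0215 and 0.0207 CPM (counts relative to the effective library size). All 6 endothelial markers checked were detected, with a summed level of 9378 to 11724 CPM and their highest sum in replicate 3. Of these, Pecam1, Flt1, Kdr and Erg were highest in replicate 3 and Cldn5 in replicate 2. Tek had 927, 977 and 898 CPM in replicates 1, 2 and 3, so it was lowest in replicate 3. Some other lists moved between libraries: anterior pituitary markers summed to 19, 1431 and 16.9 CPM and erythroid markers to 986, 121 and 56.3 CPM in replicates 1, 2 and 3. Astrocyte markers (5 of 5 detected) summed to 1495, 1627 and 843 CPM, and choroid plexus markers (5 of 5 detected) to 6855, 8170 and 5040 CPM, both lowest in replicate 3. Smooth muscle markers summed to 5200, 4586 and 5268 CPM and pericyte markers to 3672.5, 3654 and 3464 CPM in replicates 1, 2 and 3. Microglia markers summed to 4393, 3274 and 3945 CPM, lowest in replicate 2. The neuron, oligodendrocyte lineage and fibroblast lists each summed to between 92.8 and 142 CPM in every library. No marker of these lists was at 0 in all libraries. In bulk RNA, fewer cells of a type and less RNA per cell cannot be told apart.

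A small number of members carried most of the signal. Of the 101 members, 64 (63.4%) were detected, meaning 1 CPM or more in every library, beside 43.3% of the 30513 genes with any count. The median over all members was 1.73 ± 0.04 on the log2(CPM + 1) scale (SD of the 3 library medians), beside 0.49 over the genes with any count. Among the 79 members that passed the filter for testing the median was 2.30, beside 3.68 over all 18087 genes that did. Only Cdh5, Ctnna1, Pcdh1, Jup and Pkp4 reached 100 CPM in all 3 libraries. Together these 5 genes held 78.4% to 82.1% of the CPM of the 101 members in each library.

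CPM does not take gene length into account, so members were ordered by CPM per kb of exon. Cdh5 stood first at 254 ± 14.5 CPM per kb (SD, n = 3), above 99.2% of the genes tested, and Ctnna1 second at 87.9 ± 6.13 CPM per kb. Then came Pkp4 at 53.9 ± 5.01, Jup at 52.3 ± 12.4 and Pcdh1 at 40.0 ± 6.13 CPM per kb. The ranges of Cdh5, of Ctnna1 and of the 3 that follow do not overlap, and Pkp4 also lay above Pcdh1 in every library. The range of Jup overlaps those of both Pkp4 and Pcdh1, so the place of Jup beside each of them was within the spread. Ctnnd1 followed at rank 6 (10.2 ± 0.907 CPM per kb), or 26.4 CPM per kb when only the exonic bases it shares with no other gene are taken as its length. The 13 highest members, down to Pcdhb17 at 3.24 ± 0.151 CPM per kb, had means above the median of the genes tested, 3.09 CPM per kb, and the other members with a model lay below it. That boundary depends on the length used for the gamma cluster, whose genes share exons: per kb of unshared exon Pcdhgb2 had 5.16 CPM, against 2.92 CPM per kb of all its exons, and Pcdhgb6 had 4.19 CPM, against 2.30. Pcdhgc3, at rank 8 with 5.98 ± 0.537 CPM per kb, had 18.1 CPM per kb of exon unshared on either strand. Of its exonic bases 66.9% are shared when both strands are taken but 38.5% on its own strand. The higher value thus reflects opposite-strand overlap as well as the shared gamma exons.

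**Figure D1:**
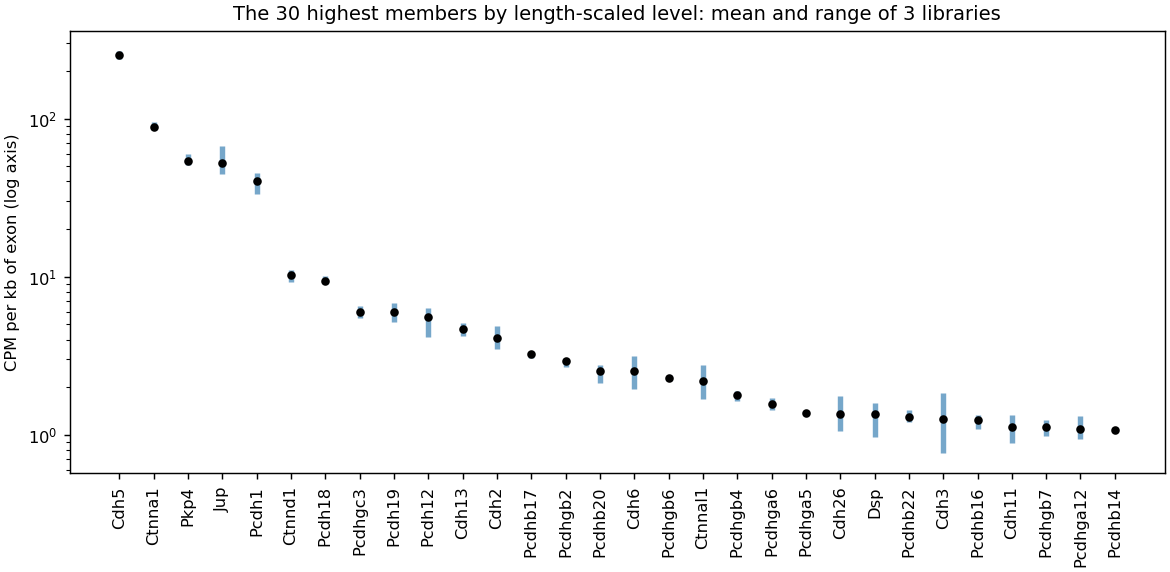
Length-scaled level (CPM per kb of exon, log axis) of the 30 highest members, in falling order; points are means and bars the range over the 3 libraries. Cdh5 (254 CPM per kb) and Ctnna1 (87.9 CPM per kb) stand clear of the rest, and the bar of Jup overlaps those of Pkp4 and Pcdh1, which do not overlap each other.

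Among the cadherins proper, the vessel fragments held one dominant transcript. Cdh5 had 1000.5, 1084 and 1119 CPM in replicates 1, 2 and 3, a mean of 1068 ± 60.9 CPM. The 3 libraries lie within 1.12-fold of each other. Of the summed length-scaled level of all 23 Cdh genes, Cdh5 took 92.5%, 93.3% and 94.2% in the 3 libraries (93.3 ± 0.834%). Of the 23 Cdh genes 11 were detected, near the share of 43.3% among all genes with any count.

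The type I cadherins, which include the epithelial and neural forms, were led by Cdh2, and 3 of the 5 were detected. Its level was 31.7, 39.3 and 28.0 CPM, highest in replicate 2. Within each library Cdh5 exceeded Cdh2 by 52.9-fold to 76.6-fold per kb of exon, a mean log2 ratio of 5.97 ± 0.27 (SD, n = 3). Cdh4 (R-cadherin) had 5.90, 7.45 and 7.20 CPM. Cdh3 (P-cadherin) had 8.11, 5.17 and 3.34 CPM, and the nearby cadherin gene on chromosome 8, Cdh1 (E-cadherin), had 2.08, 1.75 and 0.854 CPM. Both of these epithelial cadherins were highest in replicate 1 and lowest in replicate 3, the library in which all 5 choroid plexus markers were also lowest. Of these markers, Folr1, Kl, Clic6 and Aqp1 were highest in replicate 1, whereas Ttr, by far the most abundant, was highest in replicate 2 (6329, 7759 and 4759 CPM). The part of choroid plexus RNA in these levels was not tested.

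Next to Cdh5, 4 of the other 12 type II cadherins were detected. Cdh6 (K-cadherin) had 28.3, 17.5 and 22.5 CPM, lowest in replicate 2, and Cdh11, a cadherin of mesenchymal cells, had 10.2, 11.8 and 7.88 CPM. Cdh19 and Cdh20 had means of 1.45 ± 0.382 and 1.44 ± 0.292 CPM. The remaining 8 type II genes, among them the largely neuronal Cdh8, Cdh9, Cdh10, Cdh12 and Cdh18, missed the detection limit.

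Cadherins of other build were led by Cdh13. It encodes T-cadherin, which has no cytoplasmic tail and is held in the membrane by a lipid anchor. Cdh13 had 53.9, 47.5 and 56.9 CPM, the second highest CPM of all Cdh genes, and at 4.70 ± 0.427 CPM per kb its range overlapped that of Cdh2 (4.10 ± 0.713 CPM per kb). Cdh23, known from the tip links of hair cells, had 7.19, 7.32 and 9.30 CPM, while its partner there, Pcdh15, had 10, 3 and 5 counts. Cdh26 had a mean of 4.10 ± 1.09 CPM, and Cdh16 and Cdh17 stayed under the detection limit.

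All 9 partner genes were detected, with means from 1.85 ± 0.505 CPM (Ctnna2) to 565 ± 39.4 CPM (Ctnna1), and 3 of them passed 100 CPM in every library. Ctnna1, which encodes alpha-E-catenin, had 544, 540.2 and 610.3 CPM, against 1.92, 2.32 and 1.32 CPM for its neural paralog Ctnna2. The Ctnna1 to Ctnna2 ratio per kb of exon was 252-fold to 501-fold within libraries (log2 ratio 8.40 ± 0.51). Ctnnal1 (alpha-catulin), a more distant relative, had 21.3, 16.1 and 12.8 CPM, highest in replicate 1.

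In the p120 family, Pkp4 was the leading gene. It encodes p0071, an armadillo protein of adherens junctions and desmosomes that is closely related to p120-catenin. Pkp4 had 295, 288 and 341 CPM, against 80.3, 67.5 and 77 CPM for Ctnnd1, the gene of p120-catenin itself. Ctnnd2 (delta-catenin), a form enriched in neural tissue, had 8.78, 10.3 and 6.81 CPM. Ctnnd1 exceeded Ctnnd2 in each library, by 9.21-fold to 15.9-fold per kb of exon (log2 ratio 3.63 ± 0.40). The Ctnnd1 count is uncertain: in GENCODE M21 61.2% of its exonic bases also belong to Gm28635 on the same strand, and Gm28635 has 0 counts in all 3 libraries. With the bases unique to each gene as the length, the log2 ratio of Ctnnd1 to Ctnnd2 became 5.0.

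Of the 3 members grouped as desmosomal (Jup, Dsp and Pkp2, with Pkp4 placed in the p120 family above), only the plakoglobin gene Jup was abundant. Jup, whose product takes part in both adherens junctions and desmosomes, had 288, 293 and 429 CPM. Replicate 3 stood above both others. Dsp (desmoplakin), the desmosomal linker to intermediate filaments, had 15.4, 14.1 and 9.36 CPM, lowest in that same replicate. Jup exceeded Dsp by 28.0-fold to 68.8-fold per kb of exon (log2 ratio 5.29 ± 0.71), the widest spread over libraries of the 5 ratios computed. Pkp2 (plakophilin 2) had 1.97, 2.50 and 2.69 CPM and lay 108-fold to 141-fold per kb below Pkp4 (log2 ratio of Pkp4 to Pkp2 6.93 ± 0.19). In all 5 pairs the same gene was higher in 3 of 3 libraries. With 3 libraries an exact sign-flip permutation test cannot go below p = 0.25, so none was run.

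**Figure D2:**
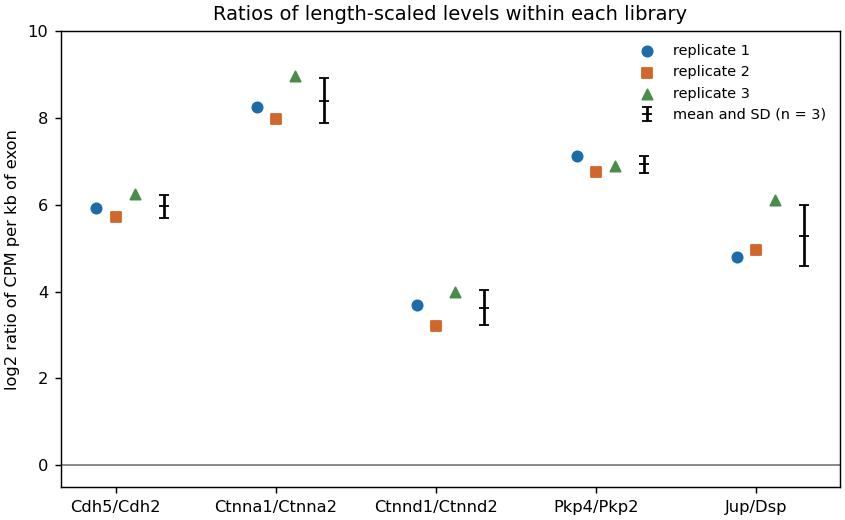
Log2 ratio of CPM per kb of exon for 5 pairs of members within each library (colours and shapes mark the replicates), with the mean and SD (n = 3). All 15 values lie above 0, from Ctnnd1 over Ctnnd2 (mean 3.63) to Ctnna1 over Ctnna2 (mean 8.40), and the Jup over Dsp values spread most.

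Of the 11 members that are protocadherins outside the clusters, 8 were detected. Pcdh1, a delta-1 protocadherin also known from airway epithelium, was by far the highest, with 294, 399.9 and 363 CPM. Replicate 1 was the lowest. Pcdh12, a protocadherin of endothelial cells, had 25.2, 38.2 and 37.5 CPM and was lowest in replicate 1 as well, as was the sum of the endothelial markers; the part of endothelial content was not tested.

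The delta-2 group contributed Pcdh19 and Pcdh18. Pcdh19, whose human counterpart is an X-linked epilepsy gene, had 60.5, 71.7 and 54.4 CPM. Pcdh18 had 54.4, 47.9 and 48.1 CPM. On the length-scaled level Pcdh18 ranked higher (9.34 ± 0.688 CPM per kb) than Pcdh19 (5.94 ± 0.835 CPM per kb), and their ranges do not overlap. Pcdh10 had 9.60, 10.9 and 5.68 CPM, and the delta-1 gene Pcdh7 had 8.94, 7.70 and 4.44 CPM. Both were lowest in replicate 3, as were Pcdh9 (mean 2.49 ± 0.733 CPM) and Pcdh17 (mean 4.80 ± 1.12 CPM). The sum of the astrocyte markers was also lowest there, and its part in these levels was not tested. Pcdh8, Pcdh15 and Pcdh20 missed the detection limit.

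**Figure D3:**
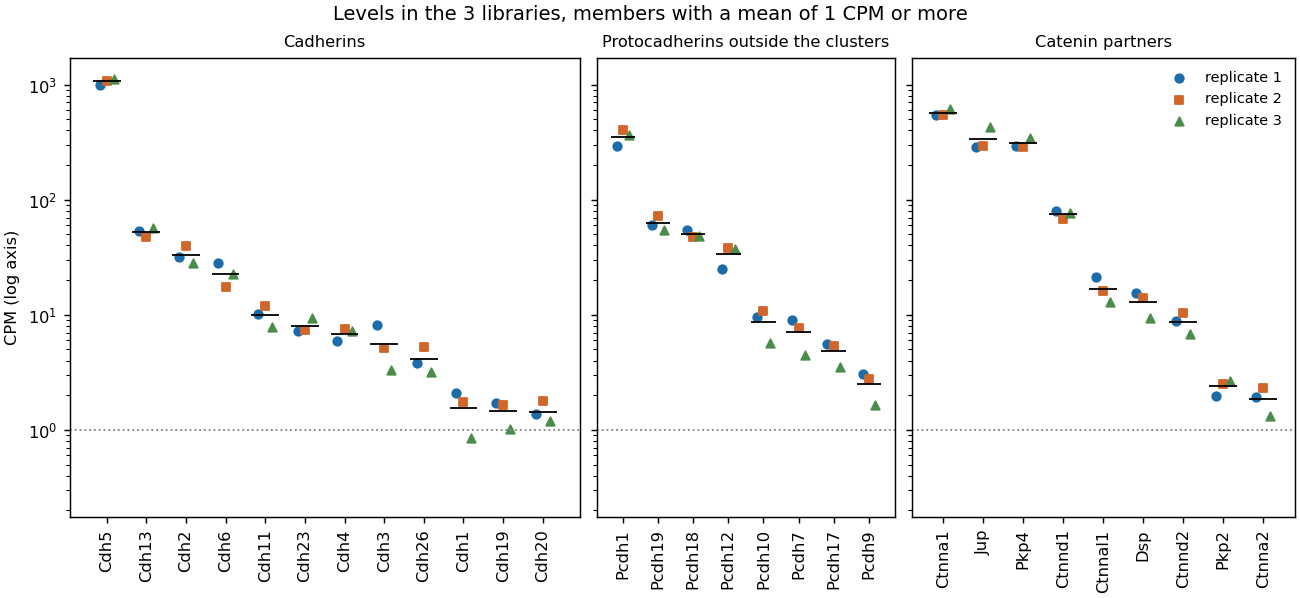
CPM (log axis) in each of the 3 libraries for cadherins, protocadherins outside the clusters and catenin partners with a mean of 1 CPM or more; black bars are means and the dotted line is 1 CPM. Cdh5, Pcdh1, Ctnna1, Jup and Pkp4 sit at 288 CPM or more in every library, and Cdh1 drops below 1 CPM in replicate 3.

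The 3 protocadherin clusters differed in how much of them could be seen. In the alpha cluster 0 of 14 genes were detected, in the beta cluster 17 of 22 and in the gamma cluster 19 of 22. Summed over its genes the gamma cluster reached 125, 144 and 135 CPM and the beta cluster 84.5, 81.5 and 75.9 CPM. The alpha cluster summed to 2.45, 2.83 and 1.10 CPM.

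How these genes were counted bears on their values. The alpha genes share their last exons with each other, and so do the gamma genes. In GENCODE M21 31.5% to 66.8% of the exonic bases of a gamma gene, and 38.9% to 91.4% for the 13 alpha genes with a model, also belong to another gene on the same strand. Pcdhga10 had 17, 8 and 0 counts although its model in that release holds the shared gamma exons. Likewise Pcdha4 and Pcdha6 had 0 counts in all 3 libraries although their models hold shared alpha exons. In replicate 1 Pcdhgc3 and Pcdhac2, which hold the shared exons of their clusters too, had 3918 and 278 counts. The annotation used for the table and its rule for shared reads are not known, so how far alpha and gamma counts include reads of the shared exons is not settled here. The beta genes have no exons shared over the whole cluster, and 19 of 22 have no exonic base under another gene. Pcdhb21 and Pcdhb22 overlap each other on the same strand, over 9.7% and 6.9% of their exonic bases. At most 7.73% of the 100-base stretches of any beta gene recur exactly in transcripts of another gene. Exons on the opposite strand overlap 63.5% of the bases of Pcdhb12, 21.1% of Pcdh7, 9.61% of Pcdh8, 6.33% of Cdh9 and 5.17% of Dsp, and since the strand setting of the counting is not known, these counts are uncertain too.

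Within the gamma cluster the C-type gene Pcdhgc3 was the highest. It had 30.1, 36.0 and 32.6 CPM and took 24.4 ± 0.450% of the cluster's CPM, although 66.9% of its exonic bases lie under other genes when both strands are taken. Pcdhgb2 followed with 13.1, 14.8 and 14.9 CPM, then Pcdhgb6 with 10.7, 10.3 and 11.2 CPM and Pcdhgb4 with 9.54, 10.8 and 10.9 CPM. By subgroup, the 12 A-type genes held 34.5 ± 0.365% of the cluster, the 7 B-type genes 38.6 ± 1.05% and the 3 C-type genes 26.9 ± 1.34%. The other C-type genes were scarce and less even. Pcdhgc5 had 2.32, 3.38 and 1.49 CPM and Pcdhgc4 had 0.907, 1.57 and 0.592 CPM, both highest in replicate 2, and Pcdhga1, at 1.43 ± 0.153 CPM, was the lowest detected member of all. All of the exonic bases of Pcdhga10 lie under other genes in GENCODE M21, its variable exon under Gm26672 on the opposite strand, so its near-zero count is uncertain. Gm26672 itself had 19, 14 and 32 counts.

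In the beta cluster the expression was spread over many genes. Pcdhb17 led with 15.5, 15.5 and 14.3 CPM, or 18.7 ± 0.371% of the cluster. Pcdhb14 had 9.67, 9.11 and 9.01 CPM, Pcdhb20 had 9.82, 9.64 and 7.57 CPM and Pcdhb22 had 8.04, 9.52 and 7.95 CPM. Per kb of exon Pcdhb17 (3.24 ± 0.151 CPM per kb) and Pcdhb20 (2.53 ± 0.351 CPM per kb) stood above Pcdhb14 (1.07 ± 0.0405 CPM per kb), whose model is longer. Pcdhb1, with 8, 14 and 1 counts, was the lowest.

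The alpha cluster came down to a single gene. Pcdhac2 took 84.9 ± 2.39% of its CPM, with 2.14, 2.41 and 0.902 CPM, and was the highest member that missed the detection limit. Its level in replicate 3 was under 1 CPM. The 13 others had at most 15 counts in any library: Pcdha12 had 5, 15 and 9 counts, Pcdha5 had 8, 8 and 9 and Pcdha9 had 6, 9 and 2, and Pcdha4 and Pcdha6 had 0 in all 3. As 3 counts correspond to about 0.02 CPM, the counts of these genes were at or not far above the limit of detection at this depth.

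**Figure D4:**
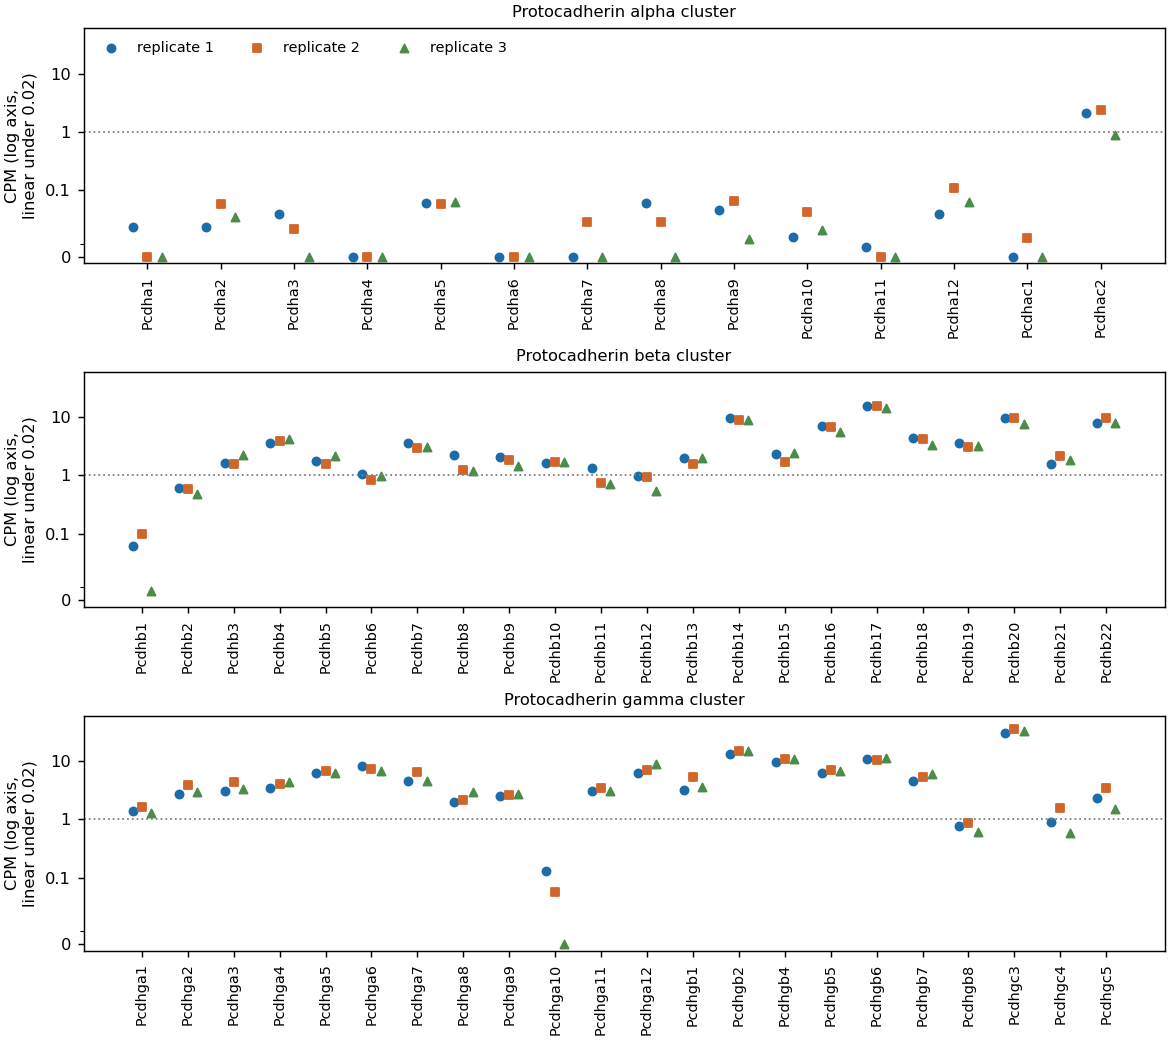
CPM in each of the 3 libraries for every gene of the protocadherin alpha, beta and gamma clusters (log axis, linear under 0.02 CPM; the dotted line is 1 CPM). Pcdhac2 stands alone in the alpha cluster, Pcdhgc3 leads the gamma cluster at 30.1 to 36.0 CPM, and Pcdhga10 falls to 0 in replicate 3.

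The spread between libraries was tested for all genes at once by comparing each gene's dispersion with the trend (edgeR quasi-likelihood, Benjamini-Hochberg over 18087 genes). None of the 79 members tested passed, where 0.0829% of all genes did, and the lowest adjusted p among them was 0.898, for Cdh3. At an unadjusted p under 0.05 there were 8 members (10.1%) against 5.18% of all genes tested: Cdh3, Pcdh7, Pcdhac2, Pcdh10, Pcdh12, Cdh18, Cdh6 and Ctnnal1. DESeq2 marked 0 of 99 members as dispersion outliers, beside 137 of the 30513 genes with any count. So few members cannot be told from that share. The test has little power for small shifts. With simulated shifts in 1 library it found 0% of 2-fold, 84% of 4-fold and 98% of 8-fold changes. These shares are over 200 altered genes in each simulation of 17744 to 17756 genes. The altered genes were drawn only from genes above a minimum mean count, and every gene was simulated at the trended dispersion. The shares may therefore be too high for members with few counts and for real genes, whose dispersions scatter around the trend.

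Among the 76 members with 50 counts or more in each library, the highest library exceeded the lowest by 1.38-fold at the median and by 2.67-fold at most. The 5 widest were Pcdhac2, Pcdhgc4 (2.64-fold), Cdh1 (2.44-fold), Cdh3 (2.43-fold) and Pcdhgc5 (2.26-fold), all lowest in replicate 3. Only Pcdh7 (2.01-fold) was also over 2-fold. The median coefficient of variation was 17.4% for the members tested and 11.9% for all genes tested, without correction for the members' lower counts.

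The direction of the differences was uneven over the libraries. Of the 79 members tested, 40 (50.6%) had their lowest value in replicate 3, beside 33.5% of all genes tested, and 15 (19%) had it in replicate 2, beside 30.9%. Type II cadherins (8 of 10 tested), type I cadherins (3 of 4), delta-2 protocadherins (4 of 5) and beta cluster genes (11 of 21) were mostly lowest in replicate 3. In the gamma cluster 14 of 21 were lowest in replicate 1, where 35.6% of all genes tested and 24 of the 79 members had their lowest value; no test compared the groups of genes. Of the 5 most abundant members, Cdh5, Ctnna1, Jup and Pkp4 had their highest value in replicate 3. In that library the summed endothelial markers were at their highest, though Tek was at its lowest and Cldn5 was higher in replicate 2. The astrocyte and choroid plexus sums were at their lowest there. The part of these marker levels in the members' levels was not tested.

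**Figure D5:**
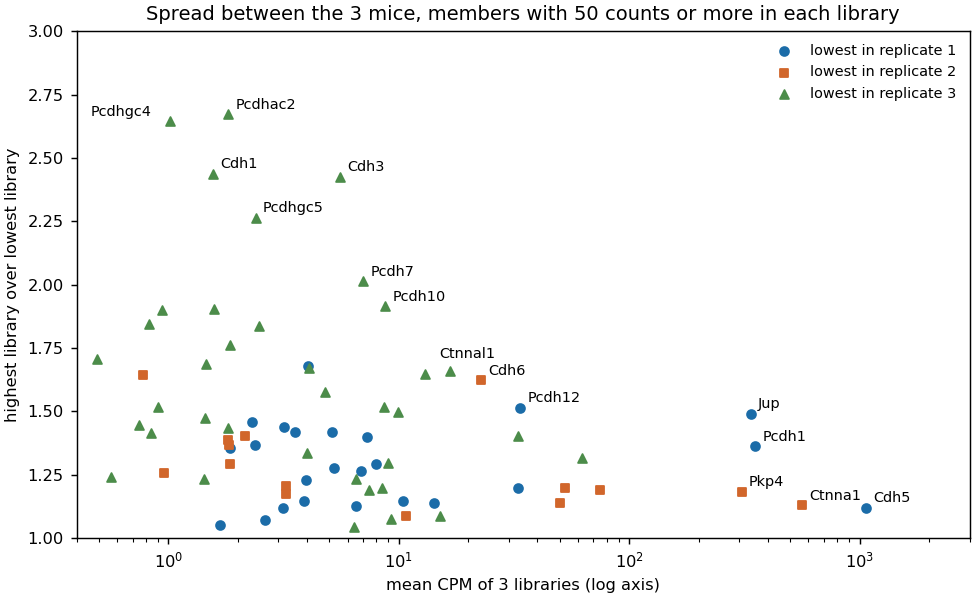
Ratio of the highest to the lowest library against mean CPM (log axis) for the 76 members with 50 counts or more in each library; colour and shape mark the lowest library. The widest ratios (2.01 to 2.67) all belong to members lowest in replicate 3, while Cdh5, Ctnna1 and Pkp4 stay within 1.12-fold to 1.18-fold.

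Further genes of cadherin adhesion outside the 101 members were counted as a list of 45, which holds beta-catenin, vinculin, afadin, junctional phosphatases, Fat, Dachsous, Celsr and calsyntenin genes and other desmosomal genes. Of these, 32 were detected, beside 43.3% of all genes with any count, with a median of 3.35 on the log2(CPM + 1) scale. In the edgeR test 0 of the 37 tested varied beyond the trend, beside 0.0829% of all genes tested. At an unadjusted p under 0.05 in that test there were 2, beside 5.18% of all genes tested. With so few genes, the counts of this test cannot be told from its background shares. No test compared the share detected.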

How the data were processed

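The authors deposited 1 table of whole-number counts per gene for 3 libraries of polyadenylated RNA (TruSeq stranded kit, 400 ng RNA, paired reads of 150 bp, per the labels' protocols). The submitters' processing notes name the build GRCm39 and, as tools, featureCounts and Subread (version 1.4.6-p5). The strand setting, the annotation release, the aligner and the rule for shared reads are unknown here (not given in the sources used). Columns were mapped to samples by library name. Counts of each pair of libraries differed far beyond sampling noise (mean chi-square 179 to 252 per gene on 1 degree of freedom, 13211 genes), so none is a copy. Nothing in the labels beyond the series' mention of mice says how samples were taken, so p-values measure the spread between these samples.

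CPM used TMM library sizes (edgeR 4.0.16, R 4.3.3; factors 1.01, 1.02 and 0.965). The log2 scale carries a pseudocount of 1 CPM. The dispersion test used an intercept-only fit over the 18087 genes kept by filterByExpr, with the upper-tail F test of each gene against the trended prior at an adjusted p of 0.05, and was tested on simulated data. DESeq2 1.42.0 was an alternative. Lengths, overlaps and shared 100-base stretches came from GENCODE M21 (build GRCm38, another build than the table), matched by symbol for 100 of 101 members; it gave no coordinates here. Tables were handled in Python 3.11.15 with pandas 2.3.3. Limits of a count of 0 cover counting error only.

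Members, lists and tests were chosen with earlier results of these data known. Named were all 9 partners, Cdh and non-clustered Pcdh genes with a mean of 5 CPM or more, the 4 highest of each cluster, the lowest detected and highest undetected member, and the 5 widest ratios; other members named were chosen after their values were seen.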

Additional observations from a re-analysis of the deposited data

How the results depend on the processing

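The number of members detected stayed between 48 (limit of 2 CPM) and 74 (0.5 CPM), with 63 by library totals, 64 with DESeq2 size factors and 64 to 66 when 1 replicate was left out. The count of variable members was 0 under all 7 alternatives. Over all genes the count of 15 became 137 as DESeq2 dispersion outliers and 173 without the filter on low counts (both over 30513 genes). With a robust prior it became 0 (785 at an unadjusted p under 0.05 in the edgeR test). It was 7 without replicate 1, 80 without replicate 2 and 33 without replicate 3. Calls were so rare over all genes that 0 among 79 to 99 members cannot be told from these background counts. The median of the members was 1.48 with a pseudocount of 0.5, 2.90 over detected members alone and 1.71 to 1.73 when 1 replicate was left out. Without length scaling the log2 ratio of Cdh5 to Cdh2 was 5.03, that of Ctnnd1 to Ctnnd2 3.13 and the Cdh5 share of the Cdh genes 87.6%; with unique lengths Ctnnd1 to Ctnnd2 was 5.0. Leaving out 1 replicate gave 5.82 to 6.09 for Cdh5 to Cdh2, 3.45 to 3.84 for Ctnnd1 to Ctnnd2, 8.12 to 8.61 for Ctnna1 to Ctnna2, 6.83 to 7.02 for Pkp4 to Pkp2, 4.89 to 5.53 for Jup to Dsp and 92.9% to 93.7% for the Cdh5 share. No ratio changed sign. With DESeq2 size factors or library totals all 78 recomputed levels of the 39 named members moved by less than 1 SD (leaving out 1 of 3 libraries can hardly move a mean that far); with unique lengths, 17 of their 39 ranks stayed within the spread of the library ranks. With unique lengths or without length scaling the counts stayed the same, and only the length they were divided by changed. The cause of the moves under the other settings was not tested. No paired analysis was possible because the libraries form 1 group. Depth limits values near 3 counts, as in the alpha cluster.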
